A study of Mus musculus with 20 samples.

Results

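The genes described here are 10 genes of antigen presentation by the major histocompatibility complex (MHC), chosen by gene name from the 54532 genes of a brain RNA-seq count table. Of these, 7 belong to the class I side (B2m, H2-K1, H2-D1, Tap1, Tapbp, Psmb8 and Psmb9) and 3 to class II (Cd74, H2-Aa and H2-Ab1). All 10 passed the filter on low counts and were among the 18336 genes tested.

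The libraries came from mouse brain, with 1 hemisphere per library and polyadenylated RNA sequenced. There were 5 libraries for each of 4 genotypes: mice without Glb1 and Neu3 (DKO), mice without Glb1 (Glb1KO), mice without Neu3 (Neu3KO), and wild-type controls (WT). Glb1 encodes the lysosomal beta-galactosidase that degrades GM1 ganglioside, the lipid stored in GM1 gangliosidosis, and Neu3 encodes a sialidase that removes sialic acid from gangliosides. The series set DKO against control brains and asked about the action of Neu3 on GM1. Per the labels, the mice were healthy and came from The Jackson Laboratory. The sources used here do not give strain, alleles, age, sex or any treatment. Each library carried an animal identifier of its own, but the labels did not state that the animals were separate, so p-values measure the spread between these libraries.

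On the class I pathway, proteasomes cut cytosolic proteins into peptides, the TAP transporter moves these into the endoplasmic reticulum, and tapasin helps to load them onto a heavy chain paired with beta-2 microglobulin for display to CD8 T cells. Interferon exchanges the constitutive catalytic subunits of the proteasome for inducible ones, which gives the immunoproteasome. On the class II pathway, an alpha and a beta chain assemble on the invariant chain, receive peptides made in endosomes and are displayed to CD4 T cells. Most nucleated cells can express class I, while in brain class II is known chiefly from macrophages of the borders, dendritic cells and stimulated microglia.

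Promoter sequence could be matched for 8 of the 10 genes (RefSeq, build GRCm38.p6). Each window ran from 250 bases before the start site to 50 after it. The windows were searched on both strands for 3 motifs. These were GGGGATT, which opens the NF-kB site known from class I promoters, the interferon regulatory factor core AANNGAAA, and the X2 and Y boxes of the module on which NLRC5 and CIITA act, written as TGACG followed by ATTGG after 19 to 21 bases. Letters and spacing were chosen with these promoters in view, so finding them there is no test. Of 27025 promoters of the same length, 3.12% held the NF-kB letters, 24.2% the interferon regulatory factor core and 0.207% the paired X2 and Y boxes. No match overlapped another in the members. The 4 promoters with matches are printed as the 220 bases that end just before the start site, in the direction of transcription, with matches in capitals, because they set the class I chains beside a class II chain.
B2m, chr2:122147467-122147686, + strand: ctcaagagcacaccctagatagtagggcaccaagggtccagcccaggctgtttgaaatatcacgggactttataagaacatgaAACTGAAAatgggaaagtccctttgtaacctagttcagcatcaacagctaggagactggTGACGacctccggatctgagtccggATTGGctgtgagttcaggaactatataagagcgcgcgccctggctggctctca
H2-K1, chr17:34000348-34000567, - strand: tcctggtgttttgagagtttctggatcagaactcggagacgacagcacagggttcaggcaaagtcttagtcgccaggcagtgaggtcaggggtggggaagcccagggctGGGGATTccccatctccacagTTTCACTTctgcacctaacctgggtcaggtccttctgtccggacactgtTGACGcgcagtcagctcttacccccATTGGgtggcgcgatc
H2-D1, chr17:35262874-35263093, + strand: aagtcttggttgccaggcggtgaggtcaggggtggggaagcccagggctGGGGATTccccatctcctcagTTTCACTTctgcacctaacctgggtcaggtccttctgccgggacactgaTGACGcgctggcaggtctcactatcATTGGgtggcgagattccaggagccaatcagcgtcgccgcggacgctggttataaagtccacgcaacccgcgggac
H2-Aa, chr17:34287824-34288043, - strand: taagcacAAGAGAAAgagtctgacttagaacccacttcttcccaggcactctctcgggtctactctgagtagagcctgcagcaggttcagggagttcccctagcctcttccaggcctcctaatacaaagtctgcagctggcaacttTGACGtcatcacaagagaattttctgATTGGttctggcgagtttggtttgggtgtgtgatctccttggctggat

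The H2-K1 and H2-D1 promoters held all 3 motifs in the same order, and shared 87.4% of 190 aligned bases. The B2m promoter held the interferon regulatory factor core and the X2 and Y boxes, and not the NF-kB letters. That of H2-Aa held the same pair, with the NF-kB letters on the other strand at 250 to 244 bases before the start site, outside the printed stretch. In the windows of Tap1, Tapbp, Psmb8 and Psmb9 neither the NF-kB letters, the core nor the pair of boxes at the set order and spacing was found, which says nothing about the factors themselves. Single boxes were not counted. By the RefSeq start sites, Tap1 and Psmb9 start on opposite strands with 225 bases between them. By the gene coordinates given further on, that interval lies within Psmb9. The interval is printed on the strand of Tap1 because both transcripts were higher in DKO brains.
Tap1-Psmb9 interval, chr17:34187331-34187555, + strand: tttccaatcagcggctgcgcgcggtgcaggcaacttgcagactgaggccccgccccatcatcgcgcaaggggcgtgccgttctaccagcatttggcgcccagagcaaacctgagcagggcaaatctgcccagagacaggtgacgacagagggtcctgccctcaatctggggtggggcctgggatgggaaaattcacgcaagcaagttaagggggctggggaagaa

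Total counts ran from 15162311 to 25145806 per library. Glb1 averaged 4.0 ± 1.1 CPM in DKO and 3.4 ± 0.9 CPM in Glb1KO, against 20.5 ± 1.3 CPM in Neu3KO and 20.2 ± 1.3 CPM in WT (SD, n = 5 each; CPM are read counts scaled to library size with TMM factors). Neu3 averaged 2.98 ± 0.83 CPM in DKO and 2.86 ± 0.41 CPM in Neu3KO, against 4.06 ± 0.62 CPM in Glb1KO and 3.85 ± 1.22 CPM in WT, which edgeR did not call, so whole-gene counts did not check the Neu3 labels. Identifiers with the letter E belonged to 2 DKO, 2 Glb1KO, 1 Neu3KO and all 5 WT libraries, those with W to 3 DKO and 4 Neu3KO libraries, and those with L to 3 Glb1KO libraries. What the letters stand for is not known, and a difference from WT cannot be told apart from a difference from the letter E in the libraries with W or L.

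In brains without Glb1 and Neu3, all 7 class I side genes rose and none of the 3 class II genes passed the test. B2m, the light chain of every classical class I molecule, was 3.49-fold higher in DKO than in WT, H2-K1 was 3.17-fold and H2-D1 2.98-fold higher, and the peptide supply genes lay between 1.55-fold and 2.48-fold. The 7 genes called of 10 stood beside 29.0% of all tested genes called in this comparison (14.0% higher and 15.1% lower; edgeR's quasi-likelihood test with Benjamini-Hochberg adjustment at 0.05). The DKO libraries lay above all WT libraries for each of the 7 class I side genes, while the groups overlapped for each class II gene. Of all tested genes, 9.28% had every DKO library above every WT library. In this bulk tissue, a larger number of expressing cells and more RNA per cell cannot be told apart.

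**Figure D1:**
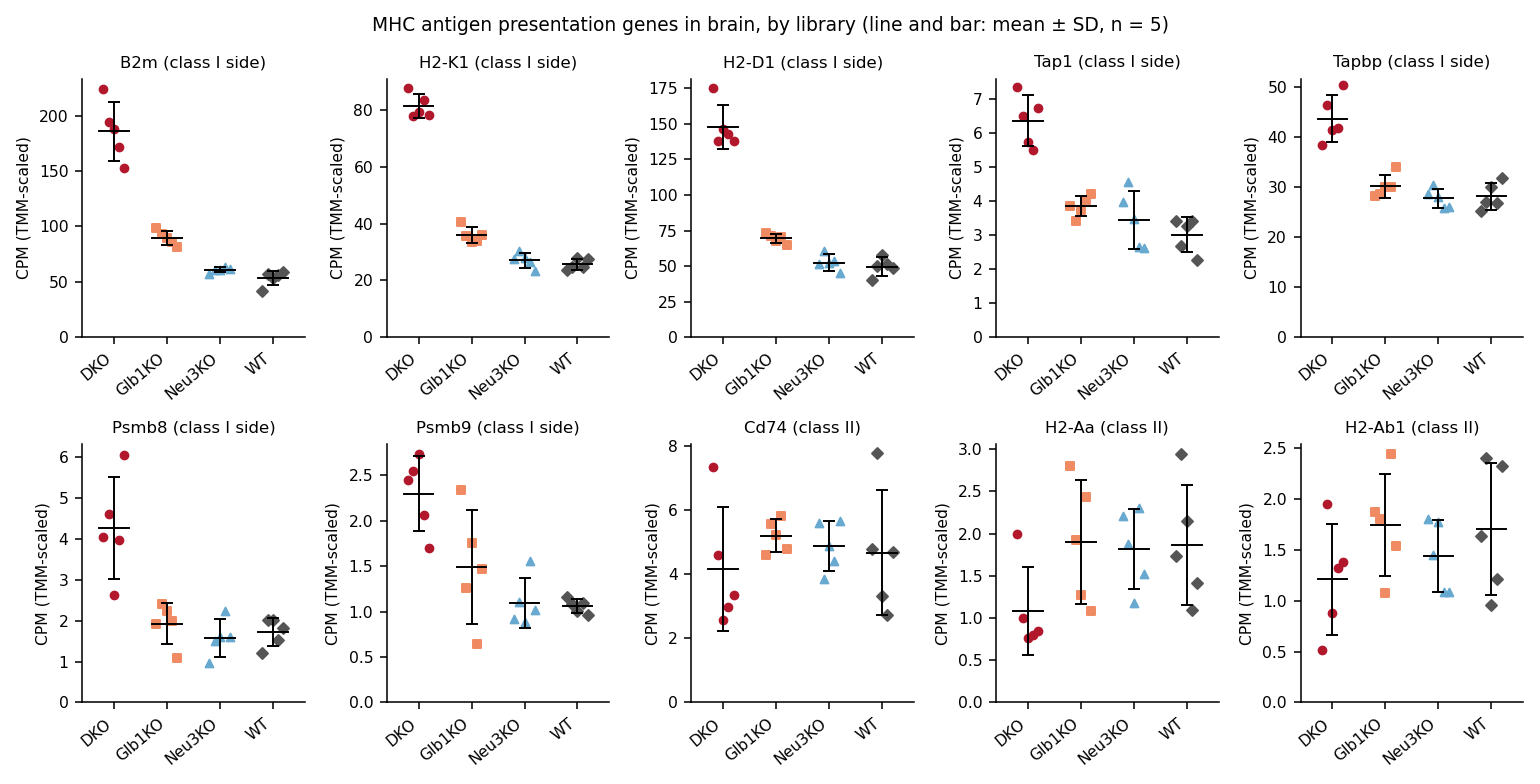
Each panel plots the TMM-scaled CPM of 1 gene by library (points) in DKO, Glb1KO, Neu3KO and WT brains, with the mean ± SD as a line and bar (n = 5). DKO points stand above every WT point in the 7 class I side panels, with B2m between 153 and 224 CPM in DKO and between 42.0 and 58.8 CPM in WT, and overlap WT in the 3 class II panels.

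B2m (ENSMUSG00000060802) lies on chromosome 2 at 122147686-122153083 (GRCm38), apart from the MHC. Its 5 DKO libraries held 224, 194, 188, 171 and 153 CPM, and its Glb1KO libraries 98.2, 92.8, 89.2, 86.0 and 81.4 CPM. The Neu3KO libraries held 56.9, 60.9, 61.1, 63.3 and 62.0 CPM, against 42.0, 56.6, 53.5, 56.2 and 58.8 CPM in WT. The DKO libraries stood highest and the Glb1KO libraries between them and the rest, with no overlap, while Neu3KO and WT overlapped. The log2 fold change over WT was 1.80 (SE 0.09, adjusted p = 1.09e-15) in DKO and 0.75 (SE 0.09, adjusted p = 6.1e-07) in Glb1KO.

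H2-K1 (ENSMUSG00000061232, chromosome 17 at 33996017-34000333) and H2-D1 (ENSMUSG00000073411, chromosome 17 at 35262730-35267499) encode the classical class I heavy chains, which hold the peptide. H2-K1 had 87.9, 78.1, 79.6, 83.6 and 78.2 CPM in DKO and 40.6, 35.6, 33.5, 34.0 and 36.1 CPM in Glb1KO, against 27.6, 30.4, 27.8, 26.5 and 23.3 CPM in Neu3KO and 23.5, 24.7, 27.9, 24.8 and 27.6 CPM in WT. Its DKO libraries lay close together, far above WT, and its Glb1KO libraries cleared every Neu3KO and WT library. H2-D1 had 175.0, 138, 147, 143 and 138 CPM in DKO and 73.3, 71.0, 67.3, 70.5 and 65.0 CPM in Glb1KO, against 51.3, 60.9, 52.2, 53.2 and 44.8 CPM in Neu3KO and 40.1, 50.3, 58.0, 51.1 and 48.9 CPM in WT. The same order held, with DKO replicate 1 apart from the other DKO libraries. Over WT, the log2 fold changes in DKO were 1.66 for H2-K1 (SE 0.07, adjusted p = 1.99e-19) and 1.58 for H2-D1 (SE 0.08, adjusted p = 4.56e-16). In Glb1KO both were 0.48 (SE 0.07 for H2-K1 and 0.08 for H2-D1).

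The proportions among these chains moved less than their levels. Within a library, B2m FPKM (the level per length that the authors deposited) over the summed FPKM of H2-K1 and H2-D1 was 2.44 ± 0.23 in DKO, 2.56 ± 0.10 in Glb1KO, 2.32 ± 0.27 in Neu3KO and 2.14 ± 0.19 in WT (SD, n = 5 each). H2-D1 FPKM over H2-K1 FPKM was 1.84 ± 0.11 in DKO, 1.96 ± 0.13 in Glb1KO, 1.96 ± 0.07 in Neu3KO and 1.95 ± 0.18 in WT. These ratios overlapped between DKO and WT and were not tested.

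Peptide transport and loading are represented by Tap1 (ENSMUSG00000037321, chromosome 17 at 34187553-34197225), a subunit of the TAP transporter, and Tapbp (ENSMUSG00000024308, chromosome 17 at 33915899-33929288), which encodes tapasin. Tap1 had 7.35, 6.51, 5.75, 5.52 and 6.74 CPM in DKO, against 3.42, 2.67, 3.28, 3.40 and 2.27 CPM in WT. The lowest DKO library was well above the highest WT library. Tap1 stood at 3.42 to 4.21 CPM in Glb1KO and at 2.61 to 4.57 CPM in Neu3KO, and both ranges touched or overlapped that of WT. The log2 fold change of Tap1 in DKO over WT was 1.08 (SE 0.17, adjusted p = 5.12e-06). Tapbp had 38.5, 46.4, 41.5, 41.9 and 50.4 CPM in DKO, against 25.2, 26.9, 30.0, 26.9 and 31.8 CPM in WT. It had the smallest change of the 7, with a log2 fold change of 0.64 (SE 0.08, adjusted p = 1.07e-07) and no overlap between DKO and WT. In Glb1KO it had 28.1 to 34.0 CPM and in Neu3KO 25.8 to 30.5 CPM.

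The immunoproteasome subunits Psmb8 (ENSMUSG00000024338, chromosome 17 at 34197721-34201454) and Psmb9 (ENSMUSG00000096727, chromosome 17 at 34181988-34187764) rest on fewer reads, from 10 to 114 per library. Psmb8 had 4.04, 4.61, 2.63, 3.97 and 6.05 CPM in DKO, against 1.21, 2.02, 2.02, 1.52 and 1.81 CPM in WT. Psmb9 had 2.45, 2.54, 2.74, 2.07 and 1.70 CPM in DKO, against 1.16, 1.09, 1.01, 1.09 and 0.963 CPM in WT. Neither gene overlapped between DKO and WT, although single DKO libraries, replicate 3 for Psmb8 and replicate 5 for Psmb9, came near the WT range. The log2 fold changes in DKO over WT were 1.31 for Psmb8 (SE 0.24, adjusted p = 6.56e-05) and 1.11 for Psmb9 (SE 0.27, adjusted p = 0.002). In Glb1KO, Psmb8 had 1.08 to 2.40 CPM and Psmb9 0.641 to 2.34 CPM, and both ranges enclosed all WT values.

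To set each inducible subunit against the constitutive subunit whose place it takes, log2 ratios of read counts were taken within each library, where scaling cancels. Psmb8 FPKM was 2.44%, 3.06%, 1.55%, 2.96% and 3.42% of Psmb5 FPKM in DKO, against 0.828%, 1.19%, 1.20%, 0.992% and 1.22% in WT. Psmb9 FPKM was 2.22%, 2.22%, 2.26%, 1.79% and 1.27% of Psmb6 FPKM in DKO, against 1.21%, 1.01%, 0.919%, 0.966% and 0.910% in WT. Both inducible transcripts thus remained a small fraction of their counterparts in every library. Psmb10 FPKM was close to par with Psmb7 FPKM, at 94.5% to 103% in DKO and 66.5% to 98.6% in WT, and these ranges overlapped. These percents depend on the gene lengths behind FPKM. By reads, Psmb10 averaged 25.9 CPM and Psmb7 52.3 CPM in DKO, against 19.4 and 48.9 CPM in WT, which is not par. Psmb8 averaged 4.26 CPM and Psmb5 52.4 CPM in DKO, against 1.72 and 51.6 CPM in WT. The log2 ratio was higher in DKO than in WT by 1.25 for Psmb8 over Psmb5 (SE 0.23) and by 0.92 for Psmb9 over Psmb6 (SE 0.17), each with p = 0.00794 in an exact two-sided permutation test, the smallest that 252 arrangements of 5 against 5 can give, and 0.0397 after adjustment over 15 tests. For Psmb10 over Psmb7 it was higher by 0.31 (SE 0.10, exact p = 0.0238, adjusted 0.0446). Against Glb1KO, the DKO ratios were higher by 1.08 for Psmb8 over Psmb5 (exact p = 0.0238, adjusted 0.0446) and by 0.27 for Psmb10 over Psmb7 (exact p = 0.00794, adjusted 0.0397). The Psmb9 over Psmb6 difference of 0.61 between them did not pass (exact p = 0.0873, adjusted 0.146). No ratio of Glb1KO or Neu3KO passed against WT, with exact p from 0.365 to 0.857. Psmb9 over Psmb6 turned on single libraries: without Glb1KO replicate 4 its Glb1KO over WT difference was 0.57 and without Neu3KO replicate 4 its Neu3KO over WT difference was -0.20 (exact p = 0.0317 each, unadjusted), and the DKO over Glb1KO difference had an unadjusted exact p of 0.0317 without DKO replicate 5 and 0.0476 without Glb1KO replicate 1. The constitutive genes themselves did not pass the test in DKO, with log2 fold changes over WT of 0.02 for Psmb5, 0.16 for Psmb6 (adjusted p = 0.0556) and 0.10 for Psmb7. The Psmb6 call depended on the setting, since its adjusted p was 0.0485 with RLE scaling, 0.0322 with upper-quartile scaling, and 0.0296 without DKO replicate 1.

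**Figure D2:**
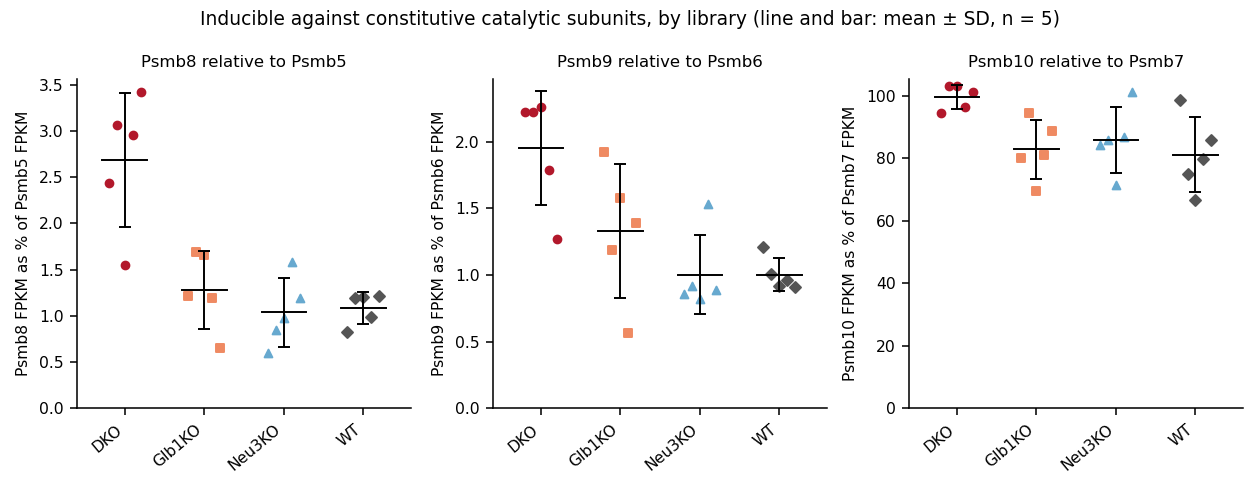
The FPKM of Psmb8, Psmb9 and Psmb10 is plotted as a percent of that of Psmb5, Psmb6 and Psmb7 by library (points), with the mean ± SD as a line and bar (n = 5). Psmb8 averaged 2.69% of Psmb5 in DKO and 1.09% in WT, and Psmb9 averaged 1.95% of Psmb6 in DKO and 1.0% in WT.

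Class II gave a different picture. Cd74 (ENSMUSG00000024610, chromosome 18 at 60803848-60812646), the invariant chain that escorts class II molecules, had 7.35, 4.61, 2.57, 2.99 and 3.35 CPM in DKO, against 4.79, 7.79, 3.34, 2.74 and 4.70 CPM in WT. H2-Aa (ENSMUSG00000036594, chromosome 17 at 34282744-34287827), an alpha chain, had 1.99, 1.01, 0.767, 0.805 and 0.849 CPM in DKO, against 1.74, 2.94, 2.14, 1.09 and 1.42 CPM in WT. H2-Ab1 (ENSMUSG00000073421, chromosome 17 at 34263209-34269418), a beta chain, had 0.513, 1.95, 0.876, 1.32 and 1.38 CPM in DKO, against 1.63, 2.40, 0.953, 1.22 and 2.32 CPM in WT. DKO and WT overlapped for all 3, and for H2-Aa 4 of the 5 DKO libraries stood below every WT library.

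Depth limited the class II results, since H2-Aa and H2-Ab1 rested on 9 to 55 reads per library. None of the 3 genes passed the test between DKO and WT. The log2 fold changes were -0.17 for Cd74 (95% interval -0.68 to 0.34, adjusted p = 0.66), -0.79 for H2-Aa (-1.43 to -0.15, adjusted p = 0.0581) and -0.50 for H2-Ab1 (-1.13 to 0.13, adjusted p = 0.242). The intervals leave room for a fall in each of them, and all 3 lie below the changes of H2-K1 and H2-D1. The H2-Aa call turned on the filter and on single libraries, as it passed at -0.78 without the filter on low counts (adjusted p = 0.0497), at -1.12 without DKO replicate 1 (adjusted p = 0.00847) and at -0.92 without WT replicate 4 (adjusted p = 0.0318). Without DKO replicate 1 it also passed against Glb1KO (-1.14, adjusted p = 0.013) and Neu3KO (-1.08, adjusted p = 0.0122), as it did without Glb1KO replicate 5 (adjusted p = 0.0469) and Neu3KO replicate 3 (adjusted p = 0.0486) in those comparisons. With the identifier letter as a term it was -0.45 over WT (adjusted p = 0.45) and -0.90 over Neu3KO (adjusted p = 0.0323). Cd74 had no stable direction, and gave 0.10 without WT replicate 2 and 0.36 in the libraries with E alone. In Glb1KO, Cd74 had 4.61 to 5.83 CPM, H2-Aa 1.08 to 2.80 CPM and H2-Ab1 1.07 to 2.44 CPM. In Neu3KO, Cd74 had 3.85 to 5.66 CPM, H2-Aa 1.18 to 2.31 CPM and H2-Ab1 1.08 to 1.80 CPM, and none of the 3 passed the test against WT in either genotype.

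The class II chains H2-Aa and H2-Ab1 were taken as a share of the summed FPKM of H2-K1, H2-D1, H2-Aa and H2-Ab1. B2m and Cd74 were in neither part. This share was 1.07% to 2.03% in DKO libraries, 3.31% to 6.46% in Glb1KO, 5.07% to 6.96% in Neu3KO and 4.33% to 9.48% in WT. The DKO libraries lay below all others. This share carries the rise of the class I chains as well as any change of class II, and no test was made of it. The mean log2 level relative to WT was 1.30 ± 0.08 over the 7 class I side genes and -0.50 ± 0.32 over the 3 class II genes in DKO, 0.39 ± 0.12 and 0.11 ± 0.33 in Glb1KO, and 0.06 ± 0.12 and -0.02 ± 0.17 in Neu3KO, against 0 ± 0.10 and 0 ± 0.48 in WT (SD over 5 libraries each). On the class II axis the WT libraries spread about as widely as the DKO mean lay from theirs.

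**Figure D3:**
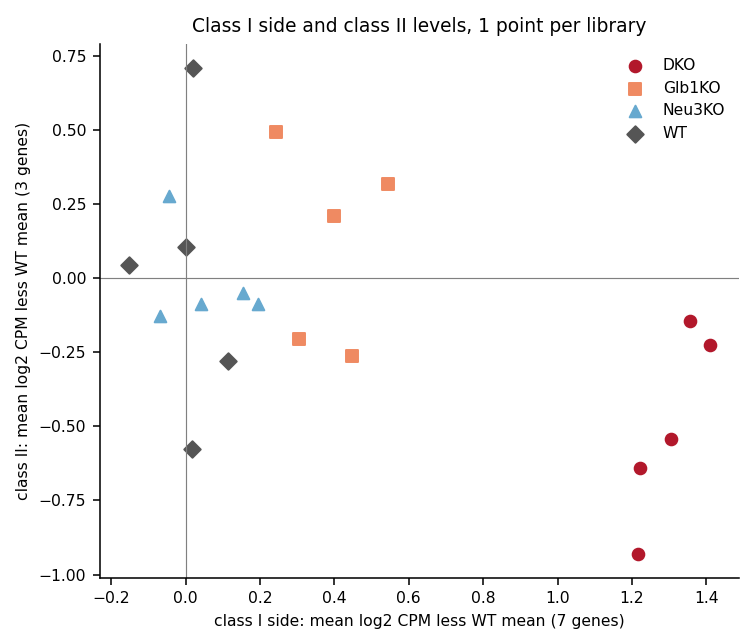
Each point is 1 library, placed by its mean log2 CPM less the WT mean over the 7 class I side genes (horizontal) and the 3 class II genes (vertical). DKO libraries stand apart on the class I axis, between 1.22 and 1.41, while their class II values from -0.93 to -0.15 fall within or below the WT range of -0.58 to 0.71.

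On the per-length FPKM scale, the order of the mean levels in WT was B2m at 61.5, H2-D1 at 19.1, H2-K1 at 9.76, Tapbp at 8.47, Cd74 at 3.28, H2-Ab1 at 1.03, H2-Aa at 0.987, Psmb8 at 0.622, Tap1 at 0.544 and Psmb9 at 0.288. Neighbours whose mean ± SD overlapped were H2-K1 and Tapbp, H2-Ab1 and H2-Aa, H2-Aa and Psmb8, and Psmb8 and Tap1. In DKO the order of the top 5 was the same, with B2m at 215, H2-D1 at 57.0, H2-K1 at 31.0, Tapbp at 13.2 and Cd74 at 2.94 FPKM. Psmb8 (1.55), Tap1 (1.16), H2-Ab1 (0.733), Psmb9 (0.624) and H2-Aa (0.575) followed, so that Psmb8 and Tap1 stood above both class II chains in DKO and below both in WT. From Cd74 on, each of the DKO neighbours overlapped in mean ± SD.

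The genes called in Glb1KO over WT were B2m, H2-K1 and H2-D1, which is 3 of the 10 members, where 3.96% of all tested genes were called (1.75% higher and 2.21% lower). All 3 were higher, with log2 fold changes of 0.75 for B2m, 0.48 for H2-K1 (adjusted p = 2.03e-05) and 0.48 for H2-D1 (adjusted p = 0.00016), and no Glb1KO library overlapped WT for any of them, where 2.60% of all tested genes had every Glb1KO library above every WT library. The other class I side genes did not pass, at 0.36 for Tap1 (95% interval 0.01 to 0.71, adjusted p = 0.297), 0.10 for Tapbp (-0.06 to 0.26), 0.18 for Psmb8 (-0.34 to 0.69) and 0.49 for Psmb9 (-0.08 to 1.06). The intervals of Tap1, Psmb8 and Psmb9 hold the size seen for the heavy chains, and that of Tapbp does not. In the libraries with E alone, B2m was at 0.65 (adjusted p = 0.000938), H2-K1 at 0.45 (adjusted p = 0.00883) and H2-D1 at 0.45 (adjusted p = 0.0758).

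Neu3 loss alone gave no call among the 10 members in edgeR, where 0% of all tested genes were called, or in DESeq2, which called 2 genes of the whole table. Over all genes, 1105 had an unadjusted p under 0.05 in edgeR, B2m among them. B2m stood at a log2 fold change of 0.19 (95% interval 0.01 to 0.36, adjusted p = 0.823), H2-K1 at 0.08 (-0.07 to 0.23) and H2-D1 at 0.08 (-0.08 to 0.25). The upper ends of these intervals lie below the Glb1KO estimates of the same genes. Intervals were wider for the other genes, from -0.67 to 0.38 for Psmb8 and from -0.64 to 0.57 for H2-Aa.

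Adding Neu3 loss to Glb1 loss raised 6 of the 10 members further. In DKO over Glb1KO, where 15.7% of all tested genes were called (8.41% higher and 7.29% lower), the log2 fold changes were 1.06 for B2m (SE 0.08), 1.18 for H2-K1 (SE 0.07), 1.09 for H2-D1 (SE 0.08), 0.73 for Tap1 (SE 0.16, adjusted p = 0.00161), 0.54 for Tapbp (SE 0.08) and 1.14 for Psmb8 (SE 0.24, adjusted p = 0.000715). These 6 genes had every DKO library above every Glb1KO library, as did 6.78% of all tested genes. Psmb9, at 0.61 (SE 0.26, adjusted p = 0.116), and the 3 class II genes did not pass, although Psmb9 did without Glb1KO replicate 1 (0.83, adjusted p = 0.0397). With the letter as a term Tap1 was at 0.76 (adjusted p = 0.0591), and in the libraries with E alone Tap1 and Tapbp did not pass (adjusted p = 0.106 and 0.0643). In DKO over Neu3KO, where 25.1% of all tested genes were called (12.3% higher and 12.8% lower), all 7 class I side genes were higher and none of the class II genes passed. Here the log2 fold changes ran from 0.65 for Tapbp to 1.61 for B2m, and every DKO library was above every Neu3KO library for all 7, as it was for 8.43% of all tested genes. In the libraries with E alone, which hold 1 Neu3KO library, Tap1 (0.81, adjusted p = 0.179) and Psmb9 (1.44, adjusted p = 0.172) did not pass. Each of these comparisons shares its DKO libraries with the others, so they are not independent.

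The interaction asks whether the effect of losing Neu3 differs between mice with and without Glb1, as the DKO over Glb1KO change less the Neu3KO over WT change. It passed for 5 of the 10 members, where 6.84% of all tested genes were called (3.96% positive and 2.88% negative). The log2 differences were 0.87 for B2m (SE 0.12, adjusted p = 1.28e-05), 1.10 for H2-K1 (SE 0.10, adjusted p = 1.42e-09), 1.01 for H2-D1 (SE 0.11, adjusted p = 1.74e-07), 0.55 for Tapbp (SE 0.11, adjusted p = 0.00135) and 1.28 for Psmb8 (SE 0.35, adjusted p = 0.0196). For these genes the double loss thus exceeded what the single losses add up to on the log2 scale. Tap1 at 0.51 (SE 0.24, adjusted p = 0.236) and Psmb9 at 0.58 (SE 0.39, adjusted p = 0.471) did not pass, nor did Cd74 at -0.38, H2-Aa at -0.77 and H2-Ab1 at -0.28. Psmb8 was lost without DKO replicate 5 (1.12, adjusted p = 0.0527). In the libraries with E alone, which hold 1 Neu3KO library, B2m, H2-K1 and H2-D1 passed, while Tapbp (0.39, adjusted p = 0.605) and Psmb8 (2.33, adjusted p = 0.0608) did not.

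**Figure D4:**
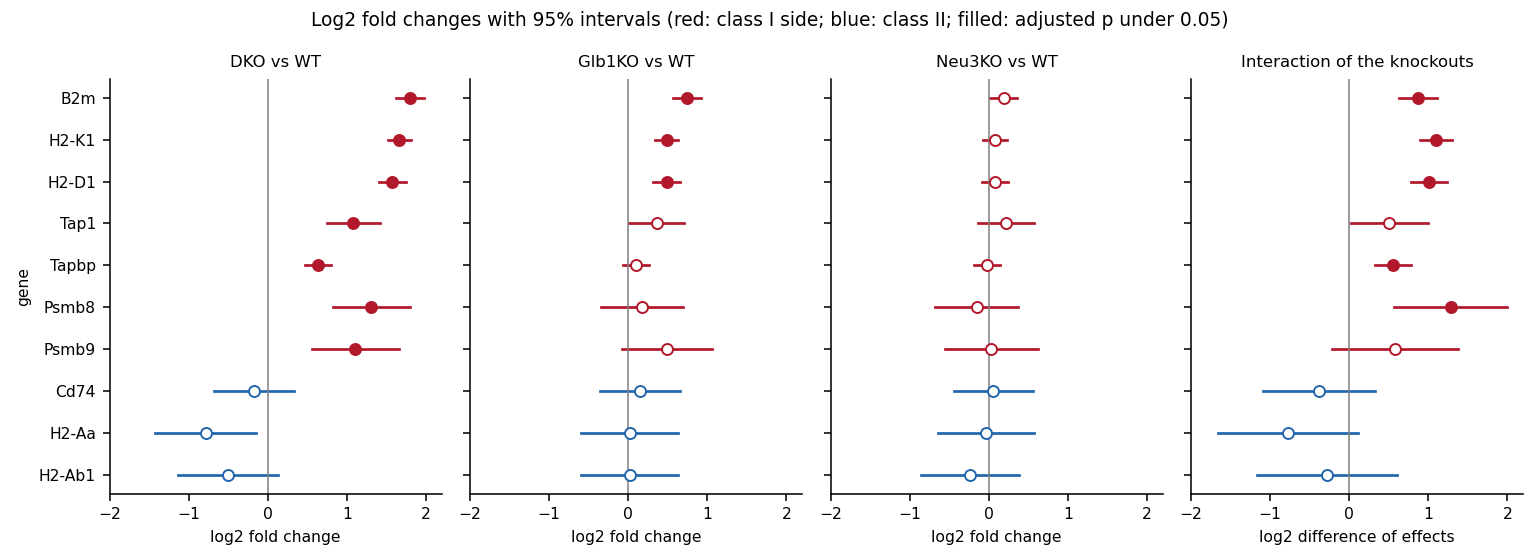
The log2 fold changes of the 10 genes are drawn with 95% intervals for DKO, Glb1KO and Neu3KO over WT and for the interaction of the knockouts (red, class I side; blue, class II; filled, adjusted p under 0.05). The class I side points lie between 0.64 and 1.80 in DKO, and all class II intervals but that of H2-Aa in DKO cross 0.

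Taken within the letter E, the DKO over WT changes were 1.98 for B2m, 1.70 for H2-K1, 1.67 for H2-D1, 1.22 for Tap1, 0.60 for Tapbp, 1.34 for Psmb8 and 1.24 for Psmb9, and all 7 passed the test with 2 DKO and 5 WT libraries (adjusted p at most 0.0182). In the authors' deposited table of DKO against WT, the log2 fold changes of the 10 members differed by at most 0.0088 from those of the edgeR fit to all 20 libraries, and 7 had an adjusted p under 0.05.

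How far reads could be assigned differed between members. Of the windows of 50 bases along annotated transcripts (GENCODE M21), 9.63% in H2-K1 and 12.8% in H2-D1 also occurred in another gene, mostly in other H2 genes, and at 100 bases these shares were 0.957% and 3.59%. Tapbp shared 23.2% of its windows of 50 bases and Psmb8 11.9%, nearly all with the antisense genes Gm19412 and Gm20496, which had at most 1 read in any library. B2m, Cd74 and H2-Ab1 shared none. By the gene coordinates given above, Tap1 and Psmb9 overlap by 212 bases on opposite strands, since Psmb9 there runs past its RefSeq start site. Tapbp, with 380 to 950 reads per library, overlaps Zbtb22, with up to 703 reads, by 3421 bases on the same strand. B2m lies within the span of Patl2, which had at most 17 reads. Whether strand was used in counting was not given in the sources used here, so reads of such partners could not be told apart from those of the members, and the split among the H2 genes is uncertain.

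Among the other class I genes of the pathway, the change in DKO was spread unevenly. Of 17 non-classical and related heavy chains, 14 were tested, 6 rose in DKO over WT, none fell, and their median log2 fold change was 0.61 against 0.00 over all tested genes. Of all tested genes, 14.0% rose and 15.1% fell. H2-Q4 rose most among those named, by 1.66 (SE 0.23, adjusted p = 1.68e-06), with 5.97 to 11.9 CPM in DKO and 2.32 to 3.51 CPM in WT. Mr1, which presents vitamin metabolites to MAIT cells, rose by 0.95 (SE 0.13), H2-Q6 by 1.20 (SE 0.25) and H2-T23, the mouse Qa-1 chain, by 0.62 (SE 0.10). H2-T22, the most abundant of the list by CPM, did not pass at 0.20 (adjusted p = 0.126). In Glb1KO over WT none of the 14 passed, where 3.96% of all tested genes did. The H2-Q and H2-T genes share sequence with each other and with H2-K1 and H2-D1, so the split of reads among them is uncertain.

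Of 11 other genes of peptide supply and loading, 4 rose and 1 fell in DKO over WT, with a median log2 fold change of 0.29, where 14.0% of all tested genes rose and 15.1% fell. Tap2, the partner of Tap1 in the transporter, rose by 0.79 (SE 0.16, adjusted p = 0.000297), and Erap1, which trims peptides to length, by 0.74 (SE 0.11, adjusted p = 2.69e-06). Psme1, a subunit of the PA28 activator, rose by 0.45 (SE 0.09) and Psmb10, the remaining inducible catalytic subunit, by 0.42 (SE 0.09, adjusted p = 0.000564). Psmb10 was lost with the letter as a term (0.28, adjusted p = 0.0571) and in the libraries with E alone (0.27, adjusted p = 0.0954). Calr, the chaperone calreticulin, fell by 0.45 on the log2 scale (adjusted p = 0.0278), a call lost without any of WT replicate 2 and DKO replicates 3, 4 or 5, with adjusted p from 0.0617 to 0.0759, and also without the filter on low counts (adjusted p = 0.0539) and with the letter as a term. The related chaperone Canx did not pass at 0.08. None of the 11 passed in Glb1KO over WT, where 3.96% of all tested genes did.

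Of 8 tested genes of a list of 15 for the rest of the class II pathway, 5 rose in DKO over WT and none fell, with a median log2 fold change of 0.83, where 14.0% of all tested genes rose. Ctss, the protease cathepsin S that degrades the invariant chain, had 181 to 213 CPM in DKO, 63.2 to 90.9 CPM in Glb1KO, 36.4 to 45.0 CPM in Neu3KO and 27.8 to 41.2 CPM in WT. Its log2 fold change was 2.54 in DKO (SE 0.09, adjusted p = 1.29e-17) and 1.21 in Glb1KO (SE 0.09, adjusted p = 8.47e-10). It was the only gene of the 8 that passed in Glb1KO over WT, where 3.96% of all tested genes were called. Ifi30, a thiol reductase of endosomal antigen processing, rose by 1.76 (SE 0.16) in DKO, H2-DMb1, a chain of the peptide editor H2-DM, by 1.17 (SE 0.27), and Lgmn, the endosomal protease legumain, by 0.86 (SE 0.06). H2-Eb1, another beta chain, which was picked out after its values were seen, had the sign of the 3 members and stood at -0.64 (SE 0.28, adjusted p = 0.086) in DKO over WT. Of the 8 tested it was the 1 gene that passed as lower in DKO over Neu3KO (-0.74, adjusted p = 0.0454). That is close to the 12.8% of all tested genes that were lower in this comparison. It had 0.747 to 1.77 CPM in DKO and 1.46 to 2.95 CPM in Neu3KO. H2-DMb1 has the close copy H2-DMb2, so its share of reads is uncertain.

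The regulators of class I and class II had opposite signs in DKO over WT, with a firm call for the first and one that turned on the setting for the second. Nlrc5, the transactivator of class I genes, had 4.96, 4.91, 5.42, 6.44 and 4.57 CPM in DKO, against 2.42, 1.74, 1.73, 1.76 and 1.30 CPM in WT, and rose by 1.55 (SE 0.20, adjusted p = 2.49e-07). Ciita, the transactivator of class II genes, had 2.51, 4.32, 2.63, 2.47 and 1.49 CPM in DKO, against 6.27, 3.32, 4.41, 4.32 and 4.19 CPM in WT, and fell by 0.75 on the log2 scale (SE 0.23, adjusted p = 0.0108). Nlrc5 showed no overlap between DKO and WT, while DKO replicate 2 held as much Ciita as the WT libraries in the middle of their range. The Ciita call was lost without WT replicate 1 (-0.60, adjusted p = 0.0542), with the letter as a term (-0.53, adjusted p = 0.142) and in the libraries with E alone (-0.39, adjusted p = 0.403). Nlrc5 passed in each of these. In Glb1KO, Nlrc5 was at 1.68 to 2.22 CPM and did not pass (0.13, 95% interval -0.31 to 0.56, adjusted p = 0.845), although B2m, H2-K1 and H2-D1 did. In Neu3KO it was at 0.678 to 1.54 CPM. The interaction of Nlrc5 was 1.89 (SE 0.30, adjusted p = 4.59e-05), which was lost in the libraries with E alone (1.66, adjusted p = 0.174).

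Of all 18 regulators tested, 7 rose and 2 fell in DKO over WT, with a median of 0.10. The 2 that fell are close to the 15.1% of all tested genes that did, while 14.0% rose. Irf8, a transcription factor of myeloid cells, rose by 1.60 (SE 0.15), and Irf9 and Stat2, partners in the complex that carries type I interferon signals, by 0.44 (SE 0.10) and 0.41 (SE 0.07). Jak1, a kinase of interferon receptors, fell by 0.18 (SE 0.05, adjusted p = 0.0032), which was lost with the letter as a term (adjusted p = 0.0779) and with E alone (adjusted p = 0.432), and Jak2 did not pass at -0.06. Irf8 was the gene of this list that passed in Glb1KO over WT, at 0.54 (SE 0.15, adjusted p = 0.0351). In that comparison 3.96% of all tested genes were called.

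Interferon gamma is the classical inducer of both classes. Ifng itself was at 0 reads in all Glb1KO, Neu3KO and WT libraries and had 1 read in all DKO libraries together, so its level was not detectable at this depth. Of 8 tested genes of the receptor and of targets of interferon gamma, 7 rose in DKO over WT, with a median log2 fold change of 1.09, where 14.0% of all tested genes rose. Cxcl10, a chemokine, rose by 4.80 (SE 0.57), or by 6.39 without WT replicate 3, with 3.02 to 8.97 CPM in DKO and 0 to 0.715 CPM in WT, so that its fold rests on few WT reads. The GTPases Gbp2, Irgm1 and Gbp3 rose by 1.49 (SE 0.18), 1.37 (SE 0.12) and 1.21 (SE 0.16), and the receptor chain Ifngr1 by 0.37 (SE 0.08). Ifngr2 did not pass at 0.18 (adjusted p = 0.0716), but did without DKO replicate 4 (adjusted p = 0.0234) or 5 (adjusted p = 0.0468) and with upper-quartile scaling (adjusted p = 0.0468). In the libraries with E alone Ifngr2 passed (0.33, adjusted p = 0.0224) and Ifngr1 did not (adjusted p = 0.0693). None of the 8 passed in Glb1KO over WT, where 3.96% of all tested genes did. Of 5 genes of surface molecules that act beside presented peptides, 3 rose in DKO over WT. These were Cd86 by 2.25 (SE 0.26), Cd274, which encodes PD-L1, by 1.23 (SE 0.22) and Icosl by 1.0 (SE 0.18). Cd40 did not pass at 0.38 (SE 0.60).

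**Figure D5:**
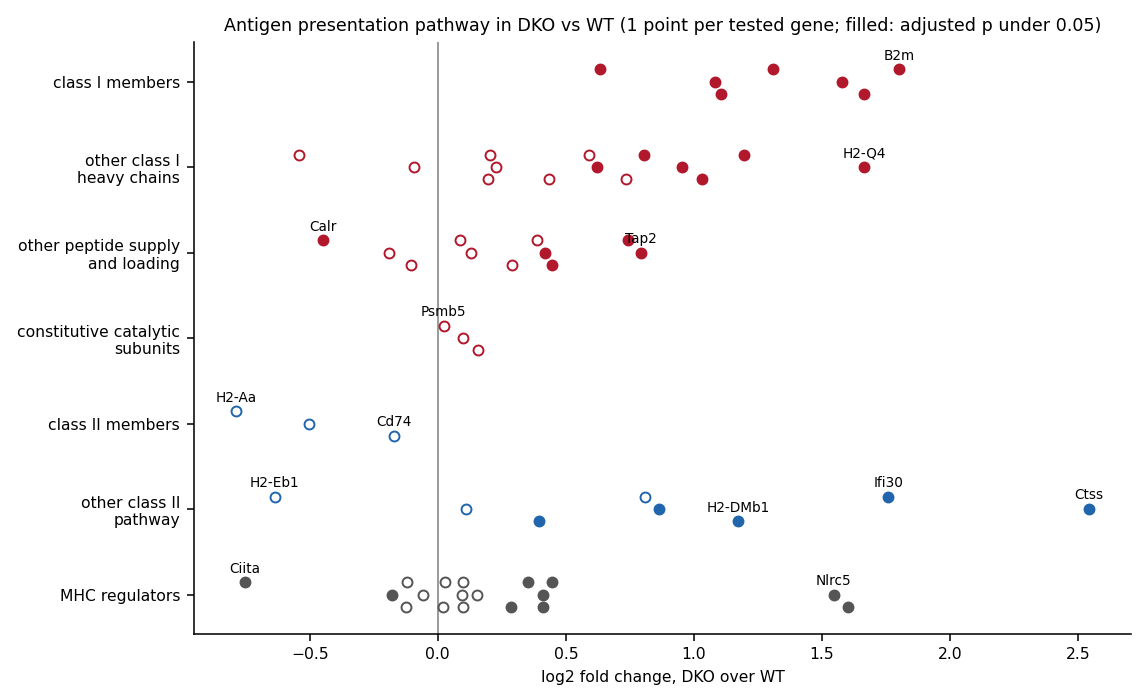
Each point is the log2 fold change of 1 tested gene in DKO over WT, arranged by list from the class I side members at the top to the MHC regulators at the bottom (filled, adjusted p under 0.05). Class I side members lie between 0.64 and 1.80, class II members between -0.79 and -0.17, and the constitutive catalytic subunits between 0.02 and 0.16.

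Markers of the cells that could carry these transcripts moved with genotype as well. The summed level of 7 markers of homeostatic microglia was 375 to 482 CPM in DKO, 263 to 287 CPM in Glb1KO, 235 to 264 CPM in Neu3KO and 206 to 249 CPM in WT. Over 5 markers of activated microglia it was 127 to 184 CPM in DKO, 55.6 to 64.8 CPM in Glb1KO, 35.2 to 52.1 CPM in Neu3KO and 38.3 to 51.1 CPM in WT. Most of the WT sum came from Spp1 and Lpl, which averaged 59.3 and 25.3 CPM in DKO, 25.8 and 23.7 CPM in Glb1KO, and 26.5 and 18.4 CPM in WT. The other 3 genes of that list were near 0 in WT and changed far more than the sum. Cst7 averaged 23.8 CPM in DKO, 3.86 CPM in Glb1KO and 0.195 CPM in WT, Itgax 14.97 CPM in DKO, 3.28 CPM in Glb1KO and 0.230 CPM in WT, and Clec7a 22.9 CPM in DKO, 3.42 CPM in Glb1KO and 0.146 CPM in WT. All 5 rose in DKO over WT, with a median log2 fold change of 6.0, where 14.0% of all tested genes rose. In Glb1KO over WT 4 of the 5 rose, where 1.75% of all tested genes did. Over 6 markers of border macrophages the sum was 15.1 to 24.4 CPM in DKO and 5.72 to 9.77 CPM in WT. It was 9.71 to 12.4 CPM in Glb1KO and 9.14 to 12.1 CPM in Neu3KO. Over 5 astrocyte markers the sum was 7640 to 8690 CPM in DKO and 3760 to 3840 CPM in WT. It was 4190 to 4390 CPM in Glb1KO and 3730 to 4260 CPM in Neu3KO. By median, the sums of microglia, border macrophages and astrocytes all stood in the order of genotypes of the class I chains. The genes within a list did not move alike in DKO over WT. Log2 fold changes ran from 0.07 to 1.85 for homeostatic microglia (4 of 7 rose) and from 0.55 to 1.68 for border macrophages (4 of 6). For astrocytes they ran from -0.01 to 4.36 (4 of 5 rose), with a median of 0.79. Of all tested genes 14.0% rose. In each of these lists Neu3KO and WT libraries overlapped. For 7 dendritic cell markers the sum was 35.4 to 48.0 CPM in DKO and 45.8 to 52.8 CPM in WT, and for 5 B cell markers 10.3 to 18.2 CPM in DKO and 14.1 to 21.5 CPM in WT. The 8 T cell markers summed to 6.64 to 9.86 CPM in DKO and 6.46 to 8.11 CPM in WT, with Cd3d and Cd3g at 0 in all WT libraries. Their sum was 7.32 to 12.2 CPM in Glb1KO and 8.02 to 9.91 CPM in Neu3KO. Of these markers 2 were tested and neither passed in DKO over WT, where 29.0% of all tested genes were called. The 6 NK cell markers summed to at most 0.741 CPM and the 4 monocyte markers to at most 1.99 CPM in any library. The 4 neutrophil markers summed to 0.767 to 3.47 CPM in DKO and 0.211 to 0.536 CPM in WT. Both that were tested, S100a8 (3.27) and S100a9 (1.88), rose on the log2 scale in DKO over WT, on at most 33 reads per library. In that comparison 14.0% of all tested genes rose. At 4 to 9 summed reads per WT library, genes of this list could pass the filter on low counts chiefly through DKO. That they rose is therefore no test. The 5 endothelial markers summed to 109 to 137 CPM in DKO and 126 to 158 CPM in WT, and the 5 choroid plexus markers to 506 to 734 CPM in DKO and 429 to 819 CPM in WT. The part of these cells in the class I and class II results was not tested.

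By mean absolute log2 difference over the 20 libraries, the genes most like the class I side mean among 14030 candidates were Ftl1 (0.065), Ctsb (0.081), Man2b1 (0.088), Npc2 (0.096) and Ctsa (0.098). Their mean log2 levels relative to WT were 1.15 to 1.32 in DKO, 0.32 to 0.48 in Glb1KO and 0.00 to 0.09 in Neu3KO. For the class II mean they were Tshz2 (0.178), Dhrs13 (0.199), Zfp109 (0.211), Tspyl4 (0.211) and Ccdc171 (0.212), so that the nearest class II neighbour was farther off than the fifth on the class I side. All points of this measure share their libraries, and it describes likeness of level only.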

How the data were processed

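The authors deposited raw read counts per gene and library, FPKM values of the same libraries, and a table of log2 fold changes and p-values for DKO against WT, per the file headers. Per the submitters' processing notes, the genome build was mm10 or GRCm38 and the tools included DESeq2 1.20.0, featureCounts 1.5.0-p3, HISAT2 2.0.5 and fastp. The sources used here do not give their roles, strand setting or filters. All sample columns matched a library.

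From the counts, all 20 libraries were fitted with a mean per genotype in edgeR 4.0.16 (R 4.3.3): TMM scaling, filterByExpr, the robust quasi-likelihood F test, and Benjamini-Hochberg adjustment over all 18336 genes tested, called at 0.05. SE were derived from the F statistic. FPKM served only for levels per length. Ratios within libraries used counts plus 0.5 and exact two-sided permutation tests (SciPy 1.17.1, 15 tests). Depth was 15162311 to 25145806 counts per library, and no pair of libraries within a genotype was identical. The pipeline was tested on simulated counts.

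The members, the gene lists and the rule for named genes were chosen with earlier results of these data known. The rule took, per list, up to 4 genes with the smallest adjusted p in DKO over WT and up to 2 with the highest mean CPM, besides all members, the catalytic subunits, Nlrc5, Ciita and the targeted genes. Most alike genes were protein-coding with a mean of at least 1 CPM. Alternatives were other scalings and filters, DESeq2 1.42.0, the compared genotypes alone, the replicate number or identifier letter as a term, identifiers with E alone, and each library left out. Promoters came from RefSeq (GRCm38.p6), and overlaps from GENCODE M21.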

Additional observations from a re-analysis of the deposited data

Results flagged for a closer look

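Of the 52 groups of 5 libraries examined, 3 held a library whose gap to the nearest other was unusually large for the range of its group, where chance gives about 1 in 20. H2-D1 had 175.0 CPM in DKO replicate 1, against 137.9 to 146.7 CPM in the other DKO libraries. H2-Aa had 1.994 CPM in the same library, against 0.767 to 1.01 CPM in the others. The log2 ratio of Psmb9 to Psmb6 was -5.037 in Neu3KO replicate 4, against -5.922 to -5.767 in the other Neu3KO libraries.

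For 5 members the effect of losing Glb1 differed between mice without and with Neu3, by the interaction term of edgeR. B2m changed by 1.61 on the log2 scale in DKO over Neu3KO and by 0.75 in Glb1KO over WT, a difference of 0.869. H2-K1 changed by 1.58 and 0.48, a difference of 1.0995, and H2-D1 by 1.495 and 0.48, a difference of 1.0106. Tapbp changed by 0.65 and 0.10, a difference of 0.5525, and Psmb8 by 1.46 and 0.18, a difference of 1.2844. Every DKO library was above every Neu3KO library for these 5 genes, as for 8.43% of all tested genes.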

How the results depend on the processing

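The count of members called stayed within 1.5 times its value for the 6 comparisons under each setting tried, except that the interaction fell to 3 genes in the libraries with E alone. Leaving out each library gave 7 to 8 for DKO over WT, 7 to 8 for DKO over Neu3KO, 6 to 7 for DKO over Glb1KO, 4 to 5 for the interaction, 3 for Glb1KO over WT and 0 for Neu3KO over WT. None of the 7 class I side calls in DKO over WT was lost under any setting, and other scalings moved the median of all genes by under 0.1 on the log2 scale. Class II genes, Psmb8 and Psmb9 rest on few reads, which limits their precision.

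Directions turned only for values that had not passed the test, and the cause was not tested. The values are log2 differences. With the identifier letter as a term, Cd74 was 0.184 in DKO over WT and 0.005 in DKO over Glb1KO, and Psmb7 was -0.025 in DKO over WT. In Glb1KO over WT, Psmb8 was -0.158, Psmb9 -0.013, H2-Aa -0.088 and Ciita 0.001, and in Neu3KO over WT H2-Aa was 0.457 and Ciita 0.161. With E alone, Cd74 was 0.363 in DKO over WT, 0.184 in DKO over Glb1KO and 0.102 in DKO over Neu3KO, and Psmb7 was -0.028 in DKO over WT. In Glb1KO over WT, Psmb8 was -0.156, Psmb9 -0.01, H2-Aa -0.087, Ciita 0.003, Psmb8 over Psmb5 -0.279 and Psmb9 over Psmb6 -0.154. In Neu3KO over WT, Tapbp was 0.029, Psmb9 -0.201, H2-Aa 0.239 and H2-Ab1 0.08, where the lone Neu3KO library is assumed to vary like the other groups.

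With each library left out in turn, DKO over WT ran from -0.472 to 0.098 for Cd74, -0.017 to 0.08 for Psmb5 and -0.099 to 0.745 for Cd40. Glb1KO over WT ran from -0.165 to 0.248 for H2-Aa, -0.133 to 0.174 for H2-Ab1 and -0.034 to 0.108 for Psmb10 over Psmb7. Neu3KO over WT ran from -0.052 to 0.034 for Tapbp, -0.301 to 0.006 for Psmb8, -0.114 to 0.098 for Psmb9, -0.077 to 0.326 for Cd74, -0.171 to 0.192 for H2-Aa, -0.261 to 0.001 for Ciita, -0.295 to 0.054 for Psmb8 over Psmb5 and -0.195 to 0.033 for Psmb9 over Psmb6.

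Replicate numbers did not pair the libraries: same-numbered libraries had correlated deviations of -0.129 to 0.065 over 30 pairs, and 2 of 20 libraries were closest to their own number. With the replicate block, 8 members were called in DKO over WT, H2-Aa being the addition (-0.825, adjusted p = 0.0348), and H2-Aa was -0.022 in Glb1KO over WT. The other 5 comparisons kept their counts of 3, 0, 6, 7 and 5. For the subunit ratios, an exact test that flips the signs of 5 paired differences cannot go below 0.0625. An exact permutation test of 2 DKO against 5 WT libraries with E alone cannot go below 0.0952.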

Other observations

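The ratio of Cd74 FPKM to H2-Aa FPKM within a library was 4.46 to 6.10 in DKO, 2.19 to 5.86 in Glb1KO, 2.54 to 5.52 in Neu3KO and 2.07 to 4.41 in WT. The DKO libraries lay above all WT libraries but overlapped those of both single knockouts. This ratio was not among the tests chosen and rests on 14 to 55 reads of H2-Aa per library.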
